A study of Mus musculus with 14 samples.

Results

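Spib, Sox8, Esrrg and Atoh8 encode transcription factors that act in microfold (M) cells, epithelial cells that sample particles of the gut lumen and hand them to immune cells. The histone mark H3K27ac (acetylated lysine 27 of histone H3), which is found at active promoters and enhancers, was followed at these 4 genes region by region. A region was counted to a gene when that gene's span was the nearest of 21887 protein-coding gene spans and lay within 100 kb. By this rule 23 of the 55050 regions of the H3K27ac table belonged to the 4 genes, 1 to Spib, 2 to Sox8, 14 to Esrrg and 6 to Atoh8. Of 7268 listed binding sites of the transcription factor ONECUT2, 3 belonged to the 4 genes, all of them to Esrrg.

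M cells form from crypt stem cells after RANKL, a TNF family cytokine made by stromal cells below the epithelium, binds its receptor RANK and activates NF-kB. Spi-B, an ETS factor encoded by Spib, is needed downstream of RANK for M cells to mature. SOX8, an HMG box factor, and ESRRG, an orphan nuclear receptor reported in mice to act upstream of Sox8, are needed for the maturation step at which the uptake receptor GP2 appears. ATOH8, a basic helix-loop-helix factor, is also induced in M cells and has been reported in mice to restrain their number.

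The RANKL group was mouse small intestinal organoids of Lgr5GFPDTR/+ genotype that had spent 3 days in ENR, a medium with EGF, Noggin and R-spondin 1, supplemented with 3 µM of the Wnt activator CHIR99021 and 1.5 mM of the histone deacetylase inhibitor valproic acid. They then had 1 day in ENR medium and were given RANKL at 100 ng/mL, with harvest at day 6. The control group was organoids of the same Lgr5GFPDTR/+ line kept in ENR medium, so the whole protocol is set against ENR medium, and the effects of RANKL, CHIR99021 and valproic acid cannot be told apart. Each group had 3 H3K27ac libraries and 3 ONECUT2 libraries, made by ChIPmentation (immunoprecipitated chromatin tagged by the Tn5 transposase) from 250000 cells per replicate in 3 independent differentiation experiments. The line came from a single female mouse (1 animal), and p-values therefore reflect variation among experiments and not among animals.

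The RANKL libraries held 2745451 to 3902301 H3K27ac reads over the regions and the control libraries held 5434172 to 9160267, so low regions were counted less precisely in the RANKL group. Values are given in CPM, read counts scaled to the effective size of each library, and fold changes are log2 ratios of RANKL over control from edgeR's quasi-likelihood test, with p adjusted over all regions or all genes tested by the Benjamini-Hochberg method and called below 0.05. Each region is 2000 bp wide, so levels compare between regions, but sums grow with the number of regions a gene has. Organoids are mixtures of cells, so more cells carrying the mark and more mark per cell cannot be told apart.

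Summed over their regions, Spib, Sox8 and Esrrg carried more H3K27ac in the RANKL group, and Atoh8 did not pass the test in either direction. The sums are from a separate scaling at the gene level, so Spib's single region has slightly different values there. Sox8 summed to 73.7, 93.5 and 87.4 CPM in RANKL replicates 1 to 3, against 7.68, 8.86 and 5.41 CPM in the controls. That is 84.9 ± 10.1 CPM in the RANKL group and 7.32 ± 1.75 CPM in the controls (SD, n = 3 each), an 11.6-fold ratio and a log2 fold of 3.49 ± 0.14 (SE, adjusted p = 6.77e-36). Sox8 stood at rank 11 from the highest fold among 15851 genes tested.

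Spib summed to 35.7, 50.9 and 41.9 CPM in the RANKL libraries, against 5.57, 13.9 and 7.46 CPM in the control libraries. The means were 42.8 ± 7.66 CPM in the RANKL group and 8.98 ± 4.37 CPM in the controls (SD, n = 3 each), 4.77-fold apart, with a log2 fold of 2.17 ± 0.19 (SE, adjusted p = 2.90e-17). The groups did not overlap, and control replicate 2 lay nearest to the RANKL libraries. Without that replicate the log2 fold was 2.71. DESeq2 gave Spib a log2 fold of 2.24 with a wider SE of 0.41 (adjusted p = 3.06e-07).

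Esrrg summed to 125, 138 and 147 CPM in the RANKL libraries, against 58.2, 74.6 and 61.6 CPM in the controls. The ratio of the means was 2.11 and the log2 fold 1.06 ± 0.08 (SE, adjusted p = 5.62e-19), at rank 713 from the highest, and the groups did not overlap. Atoh8 summed to 64.3, 62.2 and 58.4 CPM in the RANKL libraries, against 71.4, 73.4 and 59.5 CPM in the controls. The Atoh8 groups overlapped, and the log2 fold was -0.16 ± 0.10 (SE, adjusted p = 0.166). Over all genes, 25.1% were called higher and 26.9% lower, the RANKL libraries lay all above the controls at 27.8% and all below at 29.6%, and the median log2 fold was 0.01.

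**Figure D1:**
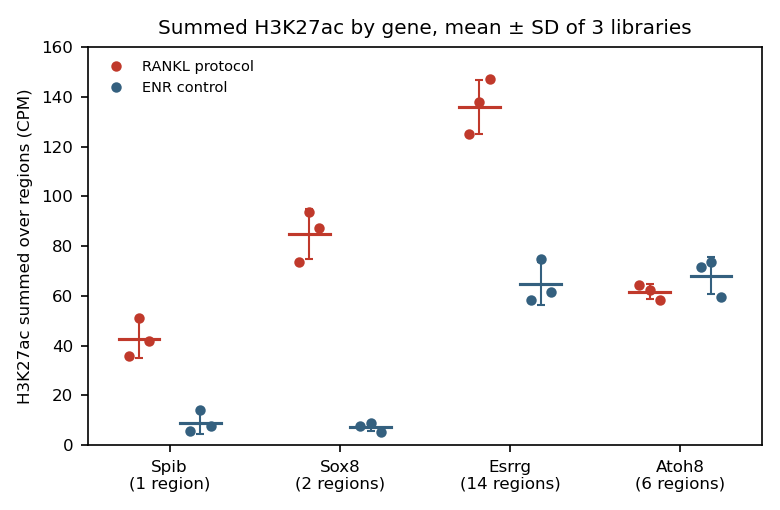
H3K27ac summed over the regions of each gene (CPM), with the RANKL libraries left of the ENR control libraries; points are libraries and bars the mean ± SD of 3. The RANKL points lie above the control points at Sox8, Spib and Esrrg, and the groups overlap at Atoh8, where the means are 61.6 and 68.1 CPM.

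All 23 regions of the 4 genes passed the filter on low counts and were tested. RANKL was higher in 8 of them (34.8%), where 14.8% of all regions were called higher, and lower in 2 (8.7%), where 21.0% of all regions were called lower. The remaining 13 did not pass the test. The regions' median log2 fold was 0.49, beside 0.06 over all 54765 regions tested, and 18 of the 23 had a log2 fold above 0. In 10 regions every RANKL library lay above every control library, and in 2 every RANKL library lay below; over all regions the shares were 20.6% and 24.2%.

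Spib and Atoh8 each had a region over the gene's start, Esrrg had a region over the fourth of its 4 RefSeq starts, and no region of the table overlapped the promoter window of Sox8. The promoter windows of these starts are printed from RefSeq (GRCm38.p6, the assembly known as mm10), from 250 bases before the start to 50 bases after it and on the gene's strand, to show the sequence the acetylation values at the starts refer to. Capitals mark matches on either strand to GGG, any 5 bases and CC, a general form of the NF-kB site, since RANK signals through NF-kB.
Spib, chr7:44532022-44532321, minus strand: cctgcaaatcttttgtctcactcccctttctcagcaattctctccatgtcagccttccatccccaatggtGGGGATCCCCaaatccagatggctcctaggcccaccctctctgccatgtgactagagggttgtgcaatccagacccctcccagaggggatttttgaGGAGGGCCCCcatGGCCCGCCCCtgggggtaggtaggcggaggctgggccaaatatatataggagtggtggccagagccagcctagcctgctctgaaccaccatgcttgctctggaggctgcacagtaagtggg
Sox8, chr17:25570637-25570936, minus strand: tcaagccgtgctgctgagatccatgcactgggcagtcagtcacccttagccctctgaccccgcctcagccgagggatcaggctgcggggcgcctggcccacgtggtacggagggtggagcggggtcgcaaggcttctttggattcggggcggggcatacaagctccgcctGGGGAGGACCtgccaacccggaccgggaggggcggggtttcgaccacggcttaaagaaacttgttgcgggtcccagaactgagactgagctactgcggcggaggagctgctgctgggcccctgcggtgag
Esrrg, the fourth start, chr1:187997577-187997876, plus strand: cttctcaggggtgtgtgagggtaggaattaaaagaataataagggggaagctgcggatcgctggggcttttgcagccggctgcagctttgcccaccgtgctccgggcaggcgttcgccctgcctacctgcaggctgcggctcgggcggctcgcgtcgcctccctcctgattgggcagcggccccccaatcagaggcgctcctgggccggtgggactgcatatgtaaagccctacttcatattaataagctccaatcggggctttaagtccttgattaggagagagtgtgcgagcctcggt
Atoh8, chr6:72235528-72235827, minus strand: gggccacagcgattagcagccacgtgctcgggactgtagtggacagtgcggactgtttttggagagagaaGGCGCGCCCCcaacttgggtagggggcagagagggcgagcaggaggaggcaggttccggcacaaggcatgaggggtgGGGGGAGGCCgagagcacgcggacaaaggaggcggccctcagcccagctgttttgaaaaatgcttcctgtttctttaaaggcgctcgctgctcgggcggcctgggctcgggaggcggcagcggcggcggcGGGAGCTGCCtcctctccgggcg
The Spib window holds 3 such matches, with first bases at -180, -84 and -71 from the start, and the Atoh8 window also holds 3, at -180, -103 and 27. Sox8 has 1, at -80, and the fourth start of Esrrg has 0. This loose motif occurs in 50.8% of 32851 mouse promoters of the same length, so a match sets none of the genes apart.

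The other motifs were searched on both strands in all 7 promoter windows of the 4 genes. The E box CANNTG, bound by basic helix-loop-helix factors such as ATOH8, occurred 2 times in the Spib window, 2 times in the Atoh8 window and 1 time each in the Sox8 window and at the first and the fourth start of Esrrg. It is in 72.3% of all promoters. GAGGAA, an ETS core of the kind Spi-B binds, occurred in 1 window, that of Esrrg's first start at -132, against 28.3% of all promoters. AACAAT (SOX, 10.7% of promoters), AAGGTCA (the core bound by estrogen-related receptors, 4.72%) and ATCGAT or ATCAAT (ONECUT, 8.4%) were not found in these windows.

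At Spib, a gene of 6.09 kb at chr7:44525995-44532087 on the minus strand, the acetylation higher in the RANKL group lay over the gene's start. The region chr7:44531136-44533136, centred at -0.065 kb from the start, held 32.5, 46.2 and 36.9 CPM in the RANKL libraries, from 91, 153 and 153 reads. In the control libraries it held 5.6, 13.6 and 7.5 CPM, from 29, 124 and 40 reads. The lowest RANKL library was above the highest control library. The RANKL mean was 38.5 ± 7.0 CPM and the control mean 8.92 ± 4.2 CPM (SD, n = 3 each), 4.32-fold apart, with a log2 fold of 2.01 ± 0.16 (SE, adjusted p = 3.99e-30). By level, the region stood at percentile 87.8 of all regions in the RANKL group and at percentile 51.5 in the controls. It also overlaps the end of Pold1, the gene of the DNA polymerase delta catalytic subunit, and was counted to Spib by the longer overlap.

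None of the regions around the Spib start was called higher. A region at the other end of the gene, chr7:44524345-44526345, overlaps both Spib's 3′ end and the muscle gene Mybpc2, to which the longer overlap assigned it. It held 46.5 ± 3.51 CPM in the RANKL group and 46.7 ± 1.83 CPM in the controls (SD, n = 3 each; log2 fold -0.02 ± 0.12, SE, adjusted p = 0.925). Counting it to Spib as well would lower the gene's log2 fold to 0.74. Among the 9 regions within 100 kb of Spib that belong to other genes, 0 were called higher, 6 lower and 3 neither. The shares over all regions were 14.8% higher and 21.0% lower. The 6 called lower had control means of 16.1 to 84.4 CPM, and lower calls were more common among stronger regions. Of all regions at 13.3 to 19.5 CPM, 29.8% were called lower and 22.4% higher. At 29.4 to 46.8 CPM, 53.8% were called lower and 14.9% higher. Whether the regions around Spib differ from others of like level was not tested. When all regions within 100 kb are added to Spib, the log2 fold of the sum is -0.12 (adjusted p = 0.0487), opposite in sign to that at the start. The lower calls at chr7:44467018-44469018 and chr7:44605323-44607323 were lost under several alternatives (adjusted p up to 0.238 and 0.267), and that at chr7:44552981-44554981 with limma on the deposited scores (adjusted p = 0.11).

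At Sox8, a gene of 4.79 kb at chr17:25565893-25570686 on the minus strand, most of the H3K27ac of the RANKL group lay outside the gene. The region chr17:25536364-25538364, 27.5 kb past the gene's 3′ end, held 62.1, 78.5 and 71.1 CPM in the RANKL libraries (174, 260 and 295 reads). In the control libraries it held 4.06, 5.61 and 3.38 CPM (21, 51 and 18 reads). Every RANKL library was far above every control library, and the control values lay near the lower end of the table, at percentile 27.1 by level. The RANKL mean stood at percentile 97.1. The means were 70.6 ± 8.2 CPM in the RANKL group and 4.35 ± 1.15 CPM in the controls (SD, n = 3 each), a 16.2-fold ratio and a log2 fold of 3.95 ± 0.16 (SE, adjusted p = 5.40e-96), at rank 39 of 54765 regions.

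The region inside Sox8, chr17:25566522-25568522, was weak in both groups. It held 5.0, 6.34 and 5.79 CPM in the RANKL libraries and 3.67, 3.08 and 2.06 CPM in the controls, from 11 to 28 reads a library. Its log2 fold of 0.95 ± 0.40 (SE, adjusted p = 0.0464) passed the test narrowly. The call was lost with DESeq2 (adjusted p = 0.0691), with the trend of fold on signal removed (adjusted p = 0.25), with limma on the deposited scores (0.47 on the log2 scale, adjusted p = 0.149), and without RANKL replicate 2 or 3 or control replicate 2 or 3 (adjusted p 0.0768 to 0.171).

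The downstream region took 92.5% ± 0.039 of the reads counted to Sox8 in the RANKL group and 59.7% ± 6.37 in the controls (SD, n = 3 each). The log2 ratio of the downstream to the internal region was 3.52 ± 0.01 in the RANKL group and 0.50 ± 0.33 in the controls (SD, n = 3 each), a difference of 3.02. The groups did not overlap in this ratio, and the exact two-sided permutation test gave p = 0.1, the smallest that 3 against 3 libraries allow. That test was run on 3 pairs of regions, 1 each for Sox8, Esrrg and Atoh8, and the p adjusted over them was 0.1 for each. With the regions within 10 kb of the gene alone, the Sox8 sum had a log2 fold of 1.14 (adjusted p = 0.011), and with all regions within 100 kb one of 1.18 (adjusted p = 6.57e-21). Among the 3 other regions within 100 kb, 0 were called higher and 1 lower, beside 14.8% and 21.0% of all regions. The lower one was at Lmf1, a gene for a lipase maturation factor whose span begins 8.49 kb from Sox8. That region had a log2 fold of -0.46 (adjusted p = 0.00168), a call lost with the trend of fold on signal removed (adjusted p = 0.37).

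**Figure D2:**
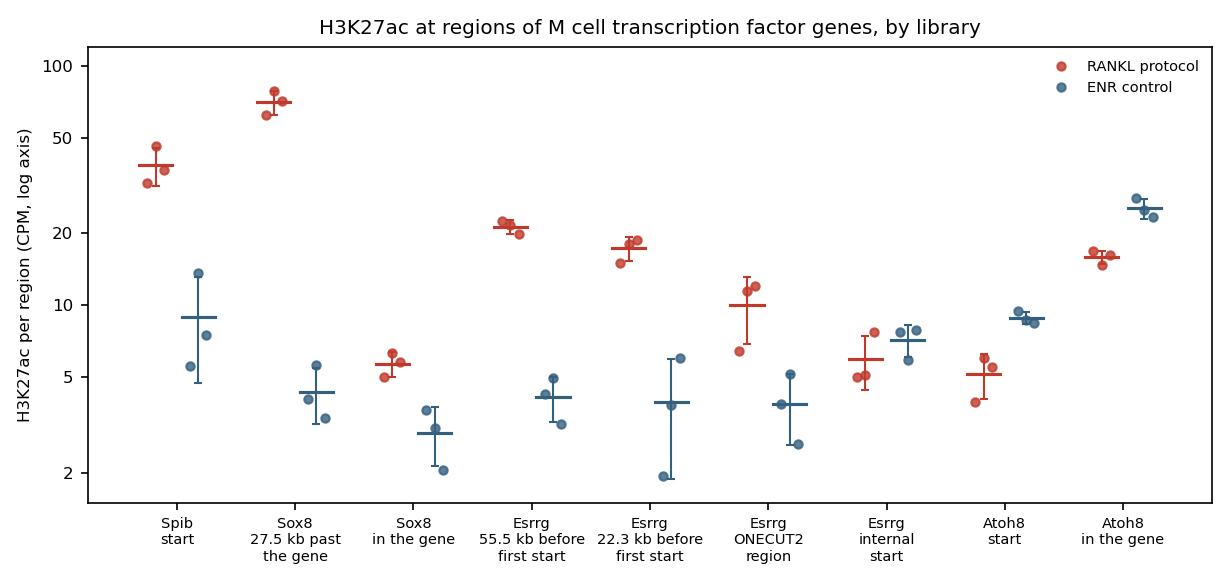
H3K27ac per region (CPM, log axis) at regions of the 4 genes, with the RANKL libraries left of the ENR control libraries; points are libraries and bars the mean ± SD of 3. The groups are farthest apart at the Sox8 downstream region, 70.6 against 4.35 CPM, and the RANKL libraries lie below the controls at the Atoh8 start and inside Atoh8.

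Esrrg spans 606 kb at chr1:187608510-188214885 on the plus strand, and its 2 regions upstream of the gene moved more than any of the 12 inside it. The farther one, chr1:187552515-187554515, 54 kb before the gene, held 22.5, 21.7 and 19.8 CPM in the RANKL libraries and 4.25, 4.95 and 3.19 CPM in the controls. Its means of 21.3 ± 1.4 CPM in the RANKL group and 4.13 ± 0.888 CPM in the controls (SD, n = 3 each) were 5.17-fold apart, with a log2 fold of 2.32 ± 0.23 (SE, adjusted p = 3.89e-20). The groups were well separated, with little spread within either.

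The nearer one, chr1:187585681-187587681, 20.8 kb before the gene, held 15.0, 18.1 and 18.8 CPM in the RANKL libraries and 1.93, 3.85 and 6.0 CPM in the controls. Its ratio of means was 4.41 and its log2 fold 2.14 ± 0.26 (SE, adjusted p = 1.05e-14). The controls spread about as widely as the RANKL libraries here, on a much lower level. Together the 2 upstream regions held 32.9%, 31.9% and 29.9% of the reads counted to Esrrg in the RANKL libraries, against 10.6%, 12% and 14.8% in the controls.

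Inside Esrrg, 3 of 12 regions were called higher, 0 lower and 9 neither, beside 14.8% higher and 21.0% lower over all regions. The region chr1:187909917-187911917, 302 kb from the first start, held 6.43, 11.5 and 12.1 CPM in the RANKL libraries and 3.86, 5.17 and 2.63 CPM in the controls. The lowest RANKL library, replicate 1, was only slightly above the highest control library, replicate 2, and the log2 fold was 1.33 ± 0.31 (SE, adjusted p = 8.87e-05). At chr1:187704532-187706532 the RANKL group had 9.41 ± 1.77 CPM and the controls 4.22 ± 1.55 CPM (SD, n = 3 each; log2 fold 1.20 ± 0.31, SE, adjusted p = 6.58e-04). At chr1:187853326-187855326 the values were 8.11 ± 1.08 CPM in the RANKL group and 3.86 ± 1.9 CPM in the controls (SD, n = 3 each; log2 fold 0.99 ± 0.33, SE, adjusted p = 0.00953). This last call was lost without RANKL replicate 2, control replicate 1 or control replicate 3 (adjusted p 0.0595 to 0.0669) and with the trend of fold on signal removed (adjusted p = 0.0652).

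The region over the fourth start of Esrrg, chr1:187996796-187998796, showed no such difference, with 5.0, 5.13 and 7.72 CPM in the RANKL libraries and 7.73, 5.94 and 7.88 CPM in the controls. The groups overlapped, and the log2 fold was -0.22 ± 0.31 (SE, adjusted p = 0.61), the 1 value below 0 among the 12. No region of the table overlapped the promoter windows of the first 3 starts. The other 8 uncalled regions inside Esrrg had log2 folds of 0.05 to 0.79 and means of 3.94 to 9.82 CPM in the RANKL group and 2.37 to 7.62 CPM in the controls. One of them, chr1:188074399-188076399, passed the test when control replicate 2 was left out (log2 fold 1.40, adjusted p = 0.0334, against 0.79 with all libraries).

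The median log2 fold of the 12 internal regions was 0.54, with 11 above 0. Weak regions ran slightly high in the whole table: among the tenth of regions that held 7 of these 12 by level (5.39 to 6.98 CPM), the median log2 fold was 0.20 and 13.7% were called higher. With that trend removed, the internal median was 0.28 and 9 of the 12 were above 0. The internal region of highest mean over the 6 libraries was chr1:187673887-187675887, uncalled at a log2 fold of 0.35. In the RANKL group it held 9.82 CPM, against 9.99 CPM at the called chr1:187909917-187911917. The log2 ratio of the farther upstream region to chr1:187673887-187675887 was 1.08 ± 0.16 in the RANKL group and -0.83 ± 0.31 in the controls (SD, n = 3 each). The difference of 1.91 separated the groups without overlap, and the exact two-sided permutation p was 0.1, the smallest possible. The ratio to the called internal regions was not tested.

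**Figure D3:**
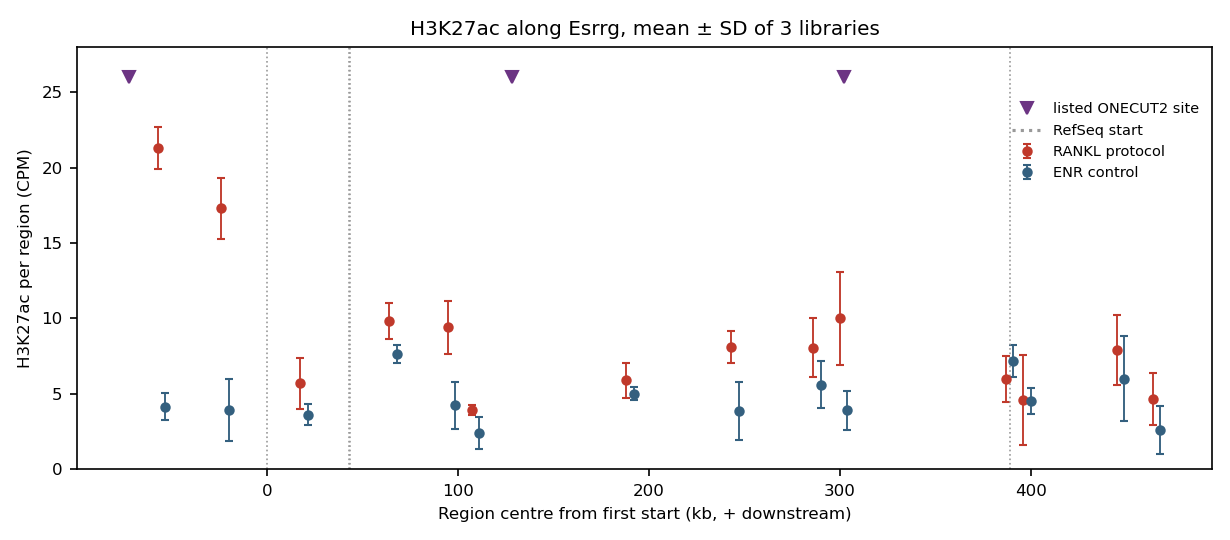
H3K27ac per region along Esrrg (CPM, mean ± SD of 3 libraries) against the distance of the region's centre from the first start in kb, with RANKL and ENR control points offset slightly, dotted lines at the RefSeq starts and triangles at the listed ONECUT2 sites. The upstream RANKL points, at 21.3 and 17.3 CPM, stand above all internal points, and the groups draw together at the fourth start.

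The 3 ONECUT2 sites of Esrrg were all listed with more binding in the RANKL group. The number of sites tested is not given, and the listed p-values and FDRs imply 7734. Of these, 93.9% were listed as higher and 0.0905% as lower in the authors' deposited table, so the direction is that of nearly all sites. The site chr1:187910361-187910761, inside the gene, had 36.0 normalised reads in the RANKL group and 7.20 in the controls in the authors' deposited table, a log2 fold of 2.22 with an FDR of 7.31e-07. It lies wholly, over 401 bp, within chr1:187909917-187911917, the internal H3K27ac region with the highest log2 fold. Of all listed sites, 40.6% overlap an H3K27ac region. The site chr1:187536179-187536579, 71.9 kb upstream of the gene, had 18 reads in the RANKL group and 2.61 in the controls in the authors' deposited table (log2 fold 2.50, FDR 4.71e-05). It lies 15.9 kb from the nearest H3K27ac region, the farther upstream one.

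The third site, chr1:187736818-187737218, 128 kb into the gene, had 13.7 reads in the RANKL group and 2.14 in the controls in the authors' deposited table (log2 fold 2.30, FDR 4.25e-04), and is 18.2 kb from the nearest region. All 3 folds exceed the median of 1.86 over the sites of the authors' deposited table. By RANKL level only the first exceeds the median of 25.9 reads in the authors' deposited table. Of the 4537 genes with a site there, 400 have 3 or more. Spib, Sox8 and Atoh8 have no listed site by the nearest-gene rule, and a site that fell short of the FDR limit would not be listed. One site lies within 100 kb of Atoh8, 96.4 kb upstream, but is nearest to Usp39, and had 21.5 reads in the RANKL group and 2.57 in the controls in the authors' deposited table.

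Atoh8, a gene of 29.6 kb at chr6:72206174-72235780 on the minus strand, had 2 called regions, and both were lower in the RANKL group. Over all regions, 14.8% were called higher and 21.0% lower. In the tenth of regions by level that held chr6:72215848-72217848 (19.5 to 29.4 CPM), 43% were called lower. In the tenth that held chr6:72234313-72236313, over the start (6.98 to 9.42 CPM), 8.88% were called lower. The region chr6:72215848-72217848, inside the gene and 18.7 kb from the start, held 16.8, 14.8 and 16.2 CPM in the RANKL libraries and 28, 25 and 23.3 CPM in the controls. Every RANKL library was below every control library. The means were 15.9 ± 1.02 CPM in the RANKL group and 25.4 ± 2.41 CPM in the controls (SD, n = 3 each), with a log2 fold of -0.67 ± 0.16 (SE, adjusted p = 2.49e-04).

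The region over the Atoh8 start, chr6:72234313-72236313, held 3.93, 6.04 and 5.55 CPM in the RANKL libraries and 9.47, 8.69 and 8.44 CPM in the controls. The groups did not overlap, and the log2 fold was -0.75 ± 0.30 (SE, adjusted p = 0.0324). Its call was lost with DESeq2 (adjusted p = 0.0752), with scaling by library size alone (adjusted p = 0.0719), and without RANKL replicate 1 or 3 or control replicate 1 or 2 (adjusted p 0.0571 to 0.122).

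The other 4 Atoh8 regions overlapped between the groups. Inside the gene, chr6:72223125-72225125 had 10.4 ± 1.8 CPM in the RANKL group and 8.97 ± 1.33 CPM in the controls (SD, n = 3 each; log2 fold 0.18, adjusted p = 0.604). The region chr6:72243464-72245464, 7.68 kb upstream and the strongest outside the gene, had 16.2 ± 2.41 CPM in the RANKL group and 17.4 ± 2.7 CPM in the controls (SD, n = 3 each; log2 fold -0.12, adjusted p = 0.642). The 2 regions farther out had log2 folds of 0.23 and -0.22. The log2 ratio of the upstream region to the strongest internal one was 0.02 ± 0.29 in the RANKL group and -0.54 ± 0.20 in the controls (SD, n = 3 each), a difference of 0.56 with no overlap and an exact two-sided permutation p of 0.1.

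**Figure D4:**
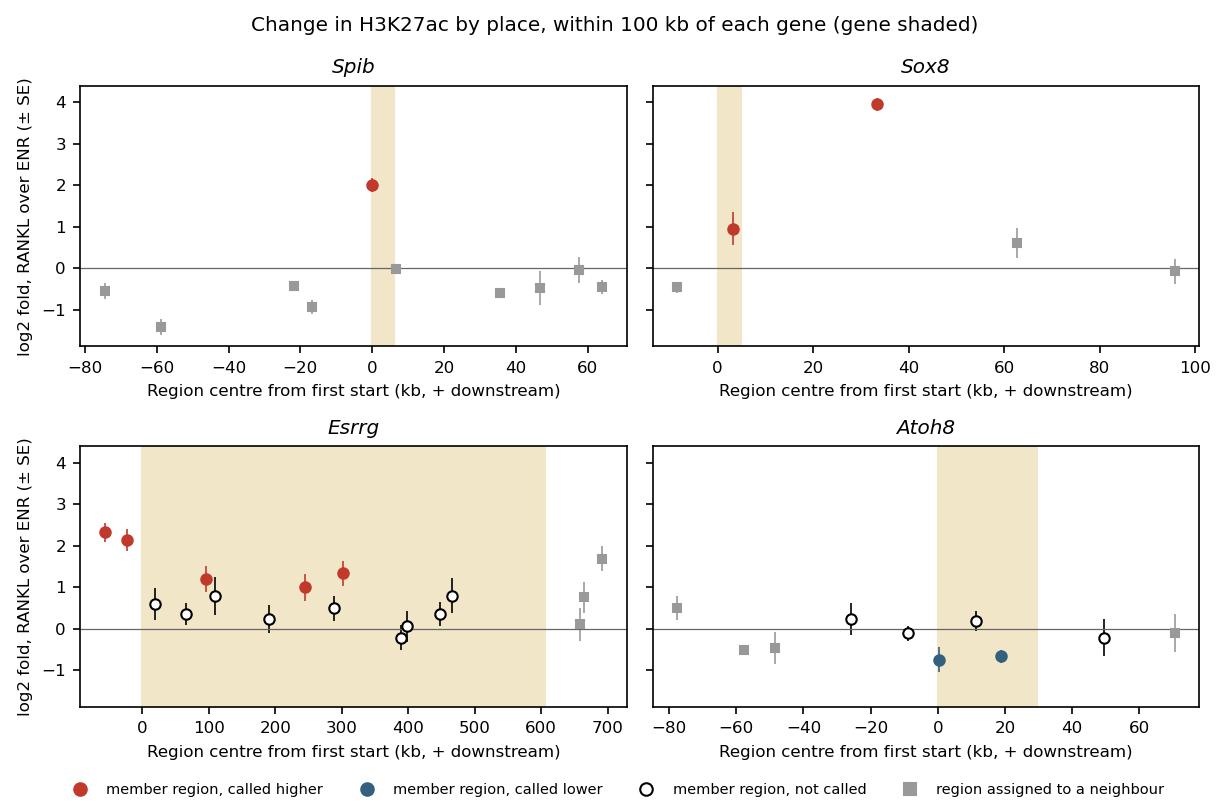
Log2 fold of H3K27ac (RANKL over ENR, ± SE) for every region within 100 kb of each gene, against the distance of its centre from the first start in kb; circles belong to the gene, filled where called, and grey squares to a neighbouring gene. The Spib start region, at 2.01, stands among neighbours at or below 0, while the highest Sox8 value, 3.95, lies downstream of the gene.

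By the place of their regions, then, the called gains lay over the start at Spib, past the 3′ end and inside the gene at Sox8, and upstream and inside the gene at Esrrg. Of the 3 regions that held a start, 1 was called higher, 1 lower and 1 neither, beside 14.8% higher and 21.0% lower over all regions. The calls inside Sox8 and at the Atoh8 start were narrow, and each was lost under several alternatives.

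The genes whose sums lay nearest to each factor's over the 6 libraries were found by the root mean square difference of log2(CPM + 0.5), centred per gene. The nearest 3 of 15851 genes were taken whatever the difference. A small difference mainly reflects a like fold between the groups, as with Sox8 at 3.49 and Adamts13 at 3.51. Whether the genes vary together within a group was not tested. For Sox8 these were Adamts13, which encodes the protease that cleaves von Willebrand factor (difference 0.182), Vmo1 (0.231) and Ubd, which encodes a ubiquitin-like modifier (0.239). For Spib they were Gm3985 (0.192), Gabrp, a GABA-A receptor subunit gene (0.198), and Acot12, an acyl-CoA thioesterase gene (0.205). For Esrrg they were Usp26, a deubiquitinase gene (0.0535), Plekhs1 (0.0594) and Timm8a2 (0.0664). For Atoh8 they were Ndufv2, a gene of respiratory complex I (0.0334), Clybl (0.0346) and Lyrm4 (0.0363).

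Close relatives of the 4 factors were read for comparison. Of 7 relatives with a region, 1 was called higher, 2 lower and 4 neither, with a median log2 fold of -0.15. Among all genes, 25.1% were called higher and 26.9% lower, with a median of 0.01. Esrrb, the estrogen-related receptor of pluripotent cells, was the 1 called higher, with 56.4, 47.6 and 60.0 CPM in the RANKL libraries and 20.0, 23.2 and 19.8 CPM in the controls. The groups did not overlap and the log2 fold was 1.37 ± 0.13 (SE, adjusted p = 2.14e-15). Sox9, a crypt and Paneth cell factor, fell to 129 ± 8.63 CPM in the RANKL group, against 162 ± 2.98 CPM in the controls (SD, n = 3 each; log2 fold -0.32 ± 0.07, SE, adjusted p = 4.08e-05). Atoh1, the factor of the secretory lineages, had 56.8 ± 3.77 CPM in the RANKL group and 67.6 ± 1.54 CPM in the controls (SD, n = 3 each; log2 fold -0.26, adjusted p = 0.0224). The Atoh1 call was lost with DESeq2 (adjusted p = 0.0661), with the trend of fold on signal removed (log2 fold -0.14, adjusted p = 0.213) and without RANKL replicate 2 or 3 or control replicate 3. Esrra (log2 fold -0.04), Spi1 (-0.15), Spic (-0.40) and Atoh7 (0.30) did not pass the test, and Sox10 had no region. Spic passed as lower with the trend of fold on signal removed (log2 fold -0.76, adjusted p = 0.0401).

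Of 15 other M cell genes with a region, 11 were called higher, 1 lower and 3 neither, with a median log2 fold of 1.19. The shares over all genes were 25.1% higher and 26.9% lower, with a median of 0.01. H2-M2, a class Ib MHC gene, had a log2 fold of 4.02 ± 0.18 (SE, adjusted p = 1.66e-33). Msln, the gene of mesothelin, had one of 3.21 ± 0.12 (SE, adjusted p = 2.16e-37) and lies on the chromosome of Sox8, 178 kb from that gene. Ccl9, the gene of a chemokine made by M cells, had one of 3.10 ± 0.16 (SE, adjusted p = 4.68e-29). Gp2, the gene of the uptake receptor, had 15.2 ± 3.44 CPM in the RANKL group and 9.83 ± 0.814 CPM in the controls (SD, n = 3 each; log2 fold 0.63 ± 0.23, SE, adjusted p = 0.0181). Ncald, a calcium sensor gene, was the 1 called lower (log2 fold -0.37, adjusted p = 0.0021), though not with the trend of fold on signal removed, and Tnfaip2, Pglyrp1 and Clu did not pass the test. Of 13 genes of the RANK and NF-kB pathway, 10 were called higher, 0 lower and 3 neither, with a median of 0.52, the uncalled ones being Traf6, Chuk and Ikbkb. The log2 folds were 1.89 ± 0.07 at the adaptor gene Traf2, 1.53 ± 0.07 at Tnfrsf11b, the gene of the decoy receptor for RANKL, and 1.27 ± 0.05 at Nfkbia, the gene of the inhibitor IkB alpha (SE, adjusted p 6.84e-38 to 8.08e-34).

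Spib is also active in B cells and plasmacytoid dendritic cells, and Sox8 in glia, so markers of cells that organoids should lack were read alongside. Of 8 leukocyte markers, 4 had no region, the B cell genes Cd79a, Cd79b and Ms4a1 among them, and over the other 4 the sum was 49.2 to 61.5 CPM in the RANKL group and 40.1 to 52.4 CPM in the controls. Csf1r (log2 fold 0.92) and Ptprc (0.61) were called higher and Itgax (-0.66) lower, the last not without RANKL replicate 2 (adjusted p = 0.0848). Among all genes, 25.1% were called higher and 26.9% lower. Of 4 enteric glia markers, 3 had no region, Sox10 and S100b among them, and Gfap had a log2 fold of 0.29 (adjusted p = 0.392), with 8.77 to 12.6 CPM in the RANKL group and 6.61 to 10.3 CPM in the controls.

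Counts in the next lists stand beside 25.1% of all genes called higher and 26.9% lower. The 6 mesenchymal markers summed to 214 to 231 CPM in the RANKL group and 148 to 165 CPM in the controls, with 4 called higher (2 without RANKL replicate 1), 0 lower and 2 neither. The log2 folds were 2.41 at Pdgfrb, 1.19 at Dcn and 0.75 at Myh11, while Col1a2 was the other one called and Col1a1 and Pdgfra did not pass. Of 6 tuft cell markers, Trpm5 and Il25 had no region, and the other 4 summed to 117 to 136 CPM in the RANKL group and 81.1 to 98.0 CPM in the controls. Dclk1 (log2 fold 1.34) and Gnat3 (0.72) were among the 3 called higher and Pou2f3 (-0.51) was the 1 called lower. The part of these markers' cells in the values of the 4 factors was not tested. All 8 epithelial markers had regions, 4 called higher and 4 lower, and they summed to 1565 to 1610 CPM in the RANKL group and 1593 to 1734 CPM in the controls. The stem cell marker Lgr5 fell by 1.67 on the log2 scale, while Epcam had a log2 fold of 0.31 and Vil1 one of -0.44.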

How the data were processed

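Per the submitters' processing notes, the genome build was mm10 and DiffBind was used; the aligner, peak caller, duplicate handling and versions were not given in the sources used here. H3K27ac was deposited by the authors as raw whole-number counts per region, with a second deposited table of a score, used in 1 alternative, that matches log(count + 1) after standardising each library, to within 5e-06. The ONECUT2 table deposited by the authors gives mean reads and a fold per site, both read here as log2 values, with a p-value and FDR. It lists only sites with an FDR up to 0.0496. The fold is the authors' own estimate, and at the Esrrg sites it is smaller than the log2 ratio of the mean reads. The input libraries were not analysed here, nor were single ONECUT2 libraries. Coordinates are printed as deposited.

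Gene spans and starts were taken from RefSeq GRCm38.p6, and overlaps with several genes went to the longer one. The counts were fitted with edgeR 4.0.16 in R 4.3.3 (TMM scaling, filterByExpr, glmQLFit and glmQLFTest, no covariate), by region (54765 of 55050 kept) and summed by gene. This procedure was tested on simulated data. The SE of an edgeR log2 fold was its absolute value divided by the square root of the test's F statistic. A root mean square difference used log2(CPM + 0.5). Pairs of libraries of 1 group differed by more than sampling noise (chi-square per degree of freedom 1.80 to 2.06), so none was counted as a repeat.

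The labels number the libraries of both groups 1 to 3. The pairing comes from reading the same number as the same differentiation experiment. Same-numbered libraries did not deviate together (correlations of their deviations from the group means -0.0269 to 0.0141 over regions).

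The text names every member and region, every close relative, the 3 genes of smallest adjusted p of each other list, the 3 genes most like each member and the genes next to them; some results under this rule are not reported here. The Usp39 result and list genes beyond these were chosen after their values were seen. The members and lists were chosen with earlier results of these data known. Alternatives were scaling by library size, DESeq2 1.42.0, limma 3.58.1 on the deposited scores, no filter, a replicate block, removal of the trend of fold on signal (loess), a minimum fold of 1.5, other distances and leaving out each library.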

Additional observations from a re-analysis of the deposited data

How the results depend on the processing

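For the 10 called regions of the 4 genes, 108 of 130 values under the alternatives kept direction and call, 22 kept the direction only and 0 changed sign. For the 13 uncalled regions, 154 of 169 kept their direction without passing, 1 newly passed, and 14 changed sign without passing. With a minimum fold of 1.5, calls over all regions fell to 3012 higher and 2613 lower (8120 and 11523 without it), calls over all genes to 843 and 387 (3974 and 4263), and calls over the 23 regions to 5 and 0 (8 and 2). The number of the 23 called lower was 1 with library size scaling and 1 with DESeq2, and ranged from 1 to 2 when each library was left out, with 1 left without RANKL replicate 1 or 3 or control replicate 1 or 2. The number called higher ranged from 6 to 8 when each library was left out. With all regions within 100 kb, Spib's log2 fold was -0.12 (adjusted p = 0.0487), reversed, and Atoh8's was -0.18 (adjusted p = 0.0381), now past the threshold, while Sox8's was 1.18 (adjusted p = 6.57e-21) against 3.49. The cause of these changes was not tested.

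The region at Spib's 3′ end, at -0.02, had a log2 fold of 0.27 (adjusted p = 0.0242) once the trend of fold on signal was removed, 0.07 with library size scaling, 0.12 with limma on the deposited scores, and -0.07 to 0.03 when each library was left out. With limma on the deposited scores, 19 of the 23 regions kept direction and call, 1 lost its call and 3 changed sign. The changes of sign were at Esrrg chr1:187798491-187800491 (-0.00 with limma, -0.04 with the trend removed), Esrrg chr1:188006255-188008255 (-0.27 with limma, -0.29 with the trend removed, -0.62 to 0.43 when each library was left out) and Atoh8 chr6:72260471-72262471 (-0.03 with limma, -0.11 with the trend removed). At Atoh8, chr6:72185100-72187100 ranged from -0.85 to 0.14 and chr6:72243464-72245464 from -0.25 to 0.02 when each library was left out, and the second was 0.01 with the trend removed. Among uncalled genes, removing the trend turned Atoh7 to -0.11, Clybl to 0.00, Gfap to -0.00, Ndufv2 to 0.02 and St3gal5 to -0.42. Leaving out each library gave -0.16 to 0.50 at Atoh7, -0.09 to 0.02 at Esrra, -0.33 to 0.01 at Spi1 and -0.27 to 0.31 at St3gal5.

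With the replicate block, the log2 folds were 2.26 for Spib, 3.52 for Sox8, 1.07 for Esrrg and -0.14 for Atoh8, with 8 regions called higher and 2 lower. The pairing changed no call of the 4 genes or their regions, and the uncalled Esrrg region chr1:188006255-188008255 was at -0.05. The neighbouring gene Lmf1 has 1 region, given above at a log2 fold of -0.46, which the separate gene-level scaling put at -0.31 (adjusted p = 0.0332). With the block, the region-level call was kept (-0.45, adjusted p = 0.00466) and the gene-level call was lost (-0.30, adjusted p = 0.054). The gene-level call was also lost with DESeq2 (adjusted p = 0.1), with the trend removed (adjusted p = 0.28), with the minimum fold, and without any of RANKL replicates 1 to 3 or control replicates 1 and 2 (adjusted p 0.0501 to 0.16).

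The 3 ONECUT2 sites were 3 at an FDR below 0.01 and 4 with every site within 100 kb. The number overlapping an H3K27ac region was 1 under either overlap rule, where 40.6% of all listed sites overlap one. Regions near 3 to 6 CPM rest on few reads a library (11 to 28 at the region inside Sox8), most of all in the RANKL group, so small differences there were not detectable at this depth.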

Other observations

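Genes next to the 4 factors were called in both directions. Beside Esrrg, Gpatch2, 237 kb away, had 173 ± 16.3 CPM in the RANKL group and 129 ± 4.09 CPM in the controls (SD, n = 3 each; log2 fold 0.43 ± 0.07, SE, adjusted p = 9.82e-08), and was called higher.

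Beside Spib, Pold1 had 15.3 ± 2.53 CPM in the RANKL group and 26.1 ± 3.87 CPM in the controls (SD, n = 3 each; log2 fold -0.78 ± 0.18, SE, adjusted p = 1.38e-04). This leaves out the Spib start region, which also overlaps the end of Pold1. That region, counted to Spib alone, had 42.8 CPM in the RANKL group and 8.98 CPM in the controls. Pold1 with that region added was not tested. Mybpc2 had a log2 fold of 0.13 (adjusted p = 0.316), and passed with the trend of fold on signal removed (0.27, adjusted p = 0.0276). Beside Sox8, Sstr5 had a log2 fold of 0.75 (adjusted p = 0.0699), and passed without RANKL replicate 2 (0.92, adjusted p = 0.043). Beside Atoh8, St3gal5 had a log2 fold of 0.03 and Sftpb one of -0.21 (adjusted p = 0.0778). Sftpb passed as lower with library size scaling (-0.24, adjusted p = 0.0405). It also passed without RANKL replicate 2 (-0.28, adjusted p = 0.0452) or control replicate 2 (-0.28, adjusted p = 0.0443). These are values of the separate gene-level scaling. Pold1, Mybpc2, Sstr5 and St3gal5 have 1 region each, with region-level log2 folds of -0.93, -0.02, 0.60 and -0.11.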
